A study of Mus musculus with 14 samples.

Results

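The 34 genes described here are classical interferon-stimulated genes of the mouse, measured by RNA sequencing in ventricles after pressure overload and cardiac gene transfer. They were taken from a list given by name, from Ifit1 to Trim30a, and all 34 were found among the 24972 genes of the deposited table. All 34 also passed the limit for testing, 3 or more samples at 10 units or more, as 13212 genes did in all. Mx1 passed it through TAC libraries alone, and Cxcl10 passed with 3 samples. Type I interferons act through the receptor chains IFNAR1 and IFNAR2, whose kinases JAK1 and TYK2 phosphorylate STAT2 among others. Together with IRF9 it is part of the complex ISGF3, which binds interferon-stimulated response elements, while interferon gamma acts through gamma-activated sites. In the heart such genes are known from viral myocarditis and from the innate response to injured or stressed tissue.

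TAC, trans-aortic constriction, narrows the aorta and overloads the left ventricle. JP2NT is the N-terminal fragment of junctophilin-2, a protein that holds the T-tubule and sarcoplasmic reticulum membranes of cardiomyocytes together. Male C57BL/6N mice aged 9 to 10 weeks were operated on and, 2 weeks later, received AAV2/9 by tail vein at 1e+12 viral genomes in 100 µl, carrying JP2NT or GFP. Ventricles were taken 8 weeks after surgery. The groups were TAC+JP2NT with 4 libraries, TAC+GFP with 4, Sham+JP2NT with 3 and Sham+GFP with 3. TAC mice had been selected for ejection fractions of 40 to 60% before injection (30 mice, with 10 shams of normal function). Every heart thus carried AAV2/9 and a transgene, so no level without virus can be given, and the promoter that drives the transgene is not given in the labels. The labels also do not say whether the libraries are separate mice, so p-values measure the spread between these samples, which may in part be technical.

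The libraries held about 8650195 to 14460869 reads each, estimated from the smallest steps of the deposited values. Values below are the deposited scaled values, rescaled jointly over all libraries, and 1 read was worth 0.69 to 1.28 deposited units. A member was called when the Benjamini-Hochberg adjusted p of limma over all 13212 genes was under 0.05. In Sham+JP2NT, replicates 1 and 2 were almost as alike as repeat counts of a single library would be (variance ratio 1.19, against 1.72 to 7.12 in the other 17 pairs) and were counted as 1 sample, which leaves n = 2 in that group. TAC+JP2NT replicate 4 stood apart: on the first principal component of all genes (50.6% of the variance) it lay at -2.33, the other libraries of its group at 23.4 to 27.5, TAC+GFP at 35.3 to 46 and the shams at -41.6 to -34.5. Jph2, whose N-terminal part the vector carries, read 6054 to 6757 in TAC+JP2NT, 5902 to 6628 in TAC+GFP, 6820 to 7143 in Sham+JP2NT and 7667 to 8185 in Sham+GFP, so the deposited gene value does not show the transgene. Fewer cells of a type and less RNA per cell cannot be told apart in this tissue.

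The response elements themselves can be read in front of the members' start sites. RefSeq promoter windows (GRCm38.p6, 250 bases before to 50 after each start) matched 25 of the 34 members, with Dhx58, Ifi27l2a, Iigp1, Mx1, Oas2, Parp14, Rtp4, Usp18 and Zbp1 unmatched. The core of the interferon-stimulated response element, searched on both strands as GAAA, any 2 bases and GAAA again, was present in 14 of the 25 members (56.0%) and in 3.99% of all genes with a window. A gamma-activated site, searched as TTCNNNGAA, which reads alike on both strands, was present in 7 of the 25 (28.0%) and in 9.55% of all genes. The stretches below come from 5 members that differed between groups (Igtp, Gbp3, Rsad2, Stat2 and Irf1) and from Isg15 and Ifit1, which hold more than 1 copy but were not called in any comparison. Capitals mark the matches, and all stretches are written 5′ to 3′ along the gene's strand.
Igtp (chr11:58199491-58199551, plus strand, 65 to 5 bases upstream): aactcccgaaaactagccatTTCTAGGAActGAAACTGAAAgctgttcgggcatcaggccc
Gbp3 (chr3:142559979-142560025, plus strand, 65 to 19 bases upstream): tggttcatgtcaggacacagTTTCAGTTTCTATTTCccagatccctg
Rsad2 (chr12:26456543-26456592, minus strand, 140 to 91 bases upstream): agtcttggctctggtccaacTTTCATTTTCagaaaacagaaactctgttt
Stat2 (chr10:128270256-128270305, plus strand, 242 to 193 bases upstream): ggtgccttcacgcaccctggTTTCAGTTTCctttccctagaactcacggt
Irf1 (chr11:53769904-53769952, plus strand, 110 to 62 bases upstream): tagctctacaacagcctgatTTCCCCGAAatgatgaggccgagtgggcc
Isg15 (chr4:156200855-156200916, minus strand, 98 to 37 bases upstream): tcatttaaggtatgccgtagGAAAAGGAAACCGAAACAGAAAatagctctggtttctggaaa
Ifit1 (chr19:34640765-34640833, plus strand, 124 to 56 bases upstream): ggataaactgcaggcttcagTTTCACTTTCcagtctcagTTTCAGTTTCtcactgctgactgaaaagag
The Igtp stretch holds both kinds of match within a few bases of each other, the Irf1 stretch a gamma-activated site alone, and Rsad2 and Stat2 the response element alone. A match describes these letters and shows no binding.

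Read per kilobase of exon, Ifi27l2a stood highest of the members at 1010 units per kilobase, as a mean over the 14 libraries, which pools groups that differ. Bst2 followed at 282, Igtp at 159, Ifi35 at 127, Gbp2 at 125, Ifit3 at 124 and Isg15 at 102, while Cxcl10 at 3.29 and Mx1 at 2.68 were lowest. The place of Igtp is that of the pooled libraries, as its mean over TAC+GFP libraries was 184 and over Sham+GFP libraries 426 before division by length. Near-identical copies limit some of these levels: 57.6% of the 50-base words of Oas1a also occur in Oas1g, and 51.2% of those of Ifit3 in Ifit3b, so the authors' counting could have split their reads. For Igtp 11.8% of the words are shared with Irgm2, whose exons overlap it on the same strand. Phrf1 overlaps the exons of Irf7, and Gm11626 those of Ifi35, on the opposite strand. The library kit keeps strand, but the counting setting is not given in the sources used here, so reads of these pairs may not be fully separated.

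**Figure D1:**
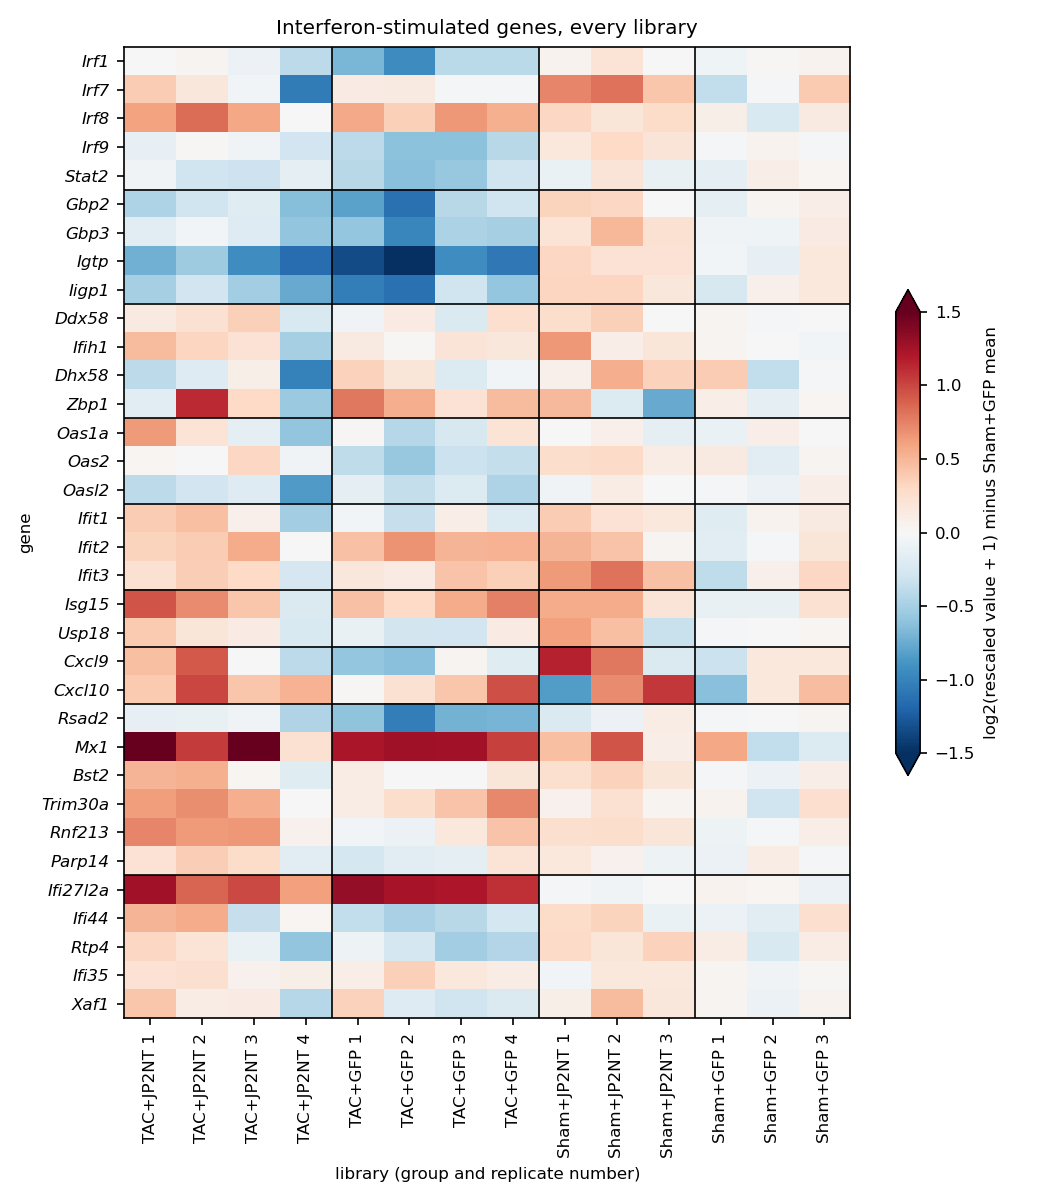
Level of each of the 34 members (rows, grouped by role) in each of the 14 libraries (columns, by group), as log2 of the rescaled value plus 1 minus the mean of the Sham+GFP libraries. The rows of Igtp, Iigp1 and Gbp2 are lower in every TAC column than in every sham column, and that of Gbp3 is too but for TAC+JP2NT replicate 2, Ifi27l2a is high in them, and the column of TAC+JP2NT replicate 4 is low for most members.

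Pressure overload under the GFP vector split the members. All 4 guanylate-binding proteins and immunity-related GTPases of the list (Gbp2, Gbp3, Igtp and Iigp1) fell, as did the transcription factors Irf1, Irf9 and Stat2 and the antiviral genes Rsad2 and Oas2, whereas Ifi27l2a, Mx1, Ifit2 and Irf8 rose. In TAC+GFP against Sham+GFP 4 members were higher and 9 lower, beside 23.3% of all tested genes higher and 24.8% lower (48.1% in all). The members' median log2 difference was -0.09, and that of all genes -0.01. The share of members higher (11.8%) was thus below that of all genes, and the share lower (26.5%) close to it.

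The 4 guanylate-binding proteins and immunity-related GTPases of the list gave the most uniform answer of the members. Such proteins attack the vacuoles of intracellular microbes and are strongly induced by interferon gamma. Relatives outside the list were not all called, as given below. Igtp, an immunity-related GTPase at chr11:58199556-58207591 (mm10), read 167, 146, 223 and 201 in TAC+GFP libraries, against 414, 389 and 476 in Sham+GFP libraries. Igtp fell by 1.22 on the log2 scale (SE 0.15, limma adjusted p = 1.95e-05), a 2.33-fold lower level, and its highest TAC+GFP library was far below the lowest sham. Iigp1, another GTPase of this kind, read 309.5, 292, 518 and 426 in TAC+GFP libraries, against 542, 674 and 712 in Sham+GFP libraries. The groups did not overlap, although TAC+GFP replicate 3 came close to Sham+GFP replicate 1, and Iigp1 fell by 0.76 on the log2 scale (SE 0.17, limma adjusted p = 0.0021). Gbp2 read 207, 166, 272 and 295 in TAC+GFP libraries, against 327, 373 and 389 in Sham+GFP libraries. Every TAC+GFP library was below every sham, with replicates 1 and 2 lowest, and Gbp2 fell by 0.66 on the log2 scale (SE 0.17, limma adjusted p = 0.00541). For Gbp3 the values were 116, 87.1, 124 and 122 in TAC+GFP libraries, against 167, 165 and 189 in Sham+GFP libraries. Gbp3 fell by 0.64 on the log2 scale (SE 0.15, limma adjusted p = 0.00243), again without overlap. Groups that did not overlap in the lower direction were found for 27.8% of all genes, and in the higher direction for 25.3%.

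Among the 5 transcription factors of the list, 3 fell, 1 rose and Irf7 was not called. Irf1, which binds interferon response elements and is itself induced early by interferon, read 224, 188, 273 and 275 in TAC+GFP libraries, against 346, 366 and 376 in Sham+GFP libraries, and fell by 0.61 on the log2 scale (SE 0.13, limma adjusted p = 0.00145). Irf9, the DNA-binding subunit of ISGF3, read 224, 192, 191 and 220.4 in TAC+GFP libraries, against 289, 305 and 288 in Sham+GFP libraries. Irf9 fell by 0.51 on the log2 scale (SE 0.09, limma adjusted p = 0.000426), with its 4 TAC+GFP libraries within a narrow band below the shams. Stat2, another subunit of that complex, read 214, 184, 191 and 231 in TAC+GFP libraries, against 259, 306 and 292 in Sham+GFP libraries and fell by 0.48 on the log2 scale (SE 0.10, limma adjusted p = 0.00159). The groups of all 3 genes were separate. Irf8, a factor of macrophages and dendritic cells, went the other way, at 104, 89.4, 110 and 102 in TAC+GFP libraries, against 74.1, 59.1 and 76.8 in Sham+GFP libraries. It rose by 0.53 on the log2 scale (SE 0.17, limma adjusted p = 0.0189), but the call was lost without Sham+GFP replicate 2 (0.41, limma adjusted p = 0.0975). Irf7, the factor that amplifies type I interferon production, read 217, 219, 195 and 197 in TAC+GFP libraries, against 154, 195 and 262 in Sham+GFP libraries (log2 difference 0.05, SE 0.26, limma adjusted p = 0.878), with the TAC+GFP libraries inside the sham range.

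Rsad2 encodes viperin, an enzyme that makes a chain-terminating nucleotide and blocks viral RNA synthesis. It read 210.1, 156, 195 and 198 in TAC+GFP libraries, against 313, 319 and 330.4 in Sham+GFP libraries, and fell by 0.76 on the log2 scale (SE 0.12, limma adjusted p = 0.000114). All sham libraries lay close together and above every TAC+GFP library, of which replicate 2 was lowest. Oas2, which senses double-stranded RNA and makes the oligoadenylates that activate RNase L, read 106, 93.8, 112 and 108 in TAC+GFP libraries, against 152, 123 and 144 in Sham+GFP libraries. Oas2 fell by 0.41 on the log2 scale (SE 0.12, limma adjusted p = 0.0107), a call lost without Sham+GFP replicate 1 (-0.32, limma adjusted p = 0.0522).

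Of the 4 members that rose, Ifi27l2a, a small hydrophobic interferon-induced protein, was the most abundant. Its values were 712, 672, 659 and 609 in TAC+GFP libraries, against 295, 291 and 268 in Sham+GFP libraries. It rose by 1.22 on the log2 scale (SE 0.12, limma adjusted p = 2.08e-06), and all TAC+GFP libraries were far above every sham. Mx1, a dynamin-like GTPase against influenza viruses that is defective in C57BL/6 and most other laboratory strains, read 13, 13.5, 13.3 and 11.2 in TAC+GFP libraries, against 7.98, 3.64 and 4.2 in Sham+GFP libraries. Mx1 rose by 1.19 on the log2 scale (SE 0.39, limma adjusted p = 0.0199) without overlap, on 11.1 to 15 estimated reads per TAC+GFP library, against 3.1 to 8 per Sham+GFP library. Mx1 passed the limit for testing through its TAC libraries alone, so a difference in this direction was in part set by that limit, and 3 members rose without it. That call was lost without Sham+GFP replicate 2 or 3 (limma adjusted p up to 0.0837). Ifit2, an RNA-binding protein of the IFIT family, read 231, 273, 244 and 247 in TAC+GFP libraries, against 154, 168 and 194 in Sham+GFP libraries. It rose by 0.54 on the log2 scale (SE 0.14, limma adjusted p = 0.00501), and its groups were separate.

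**Figure D2:**
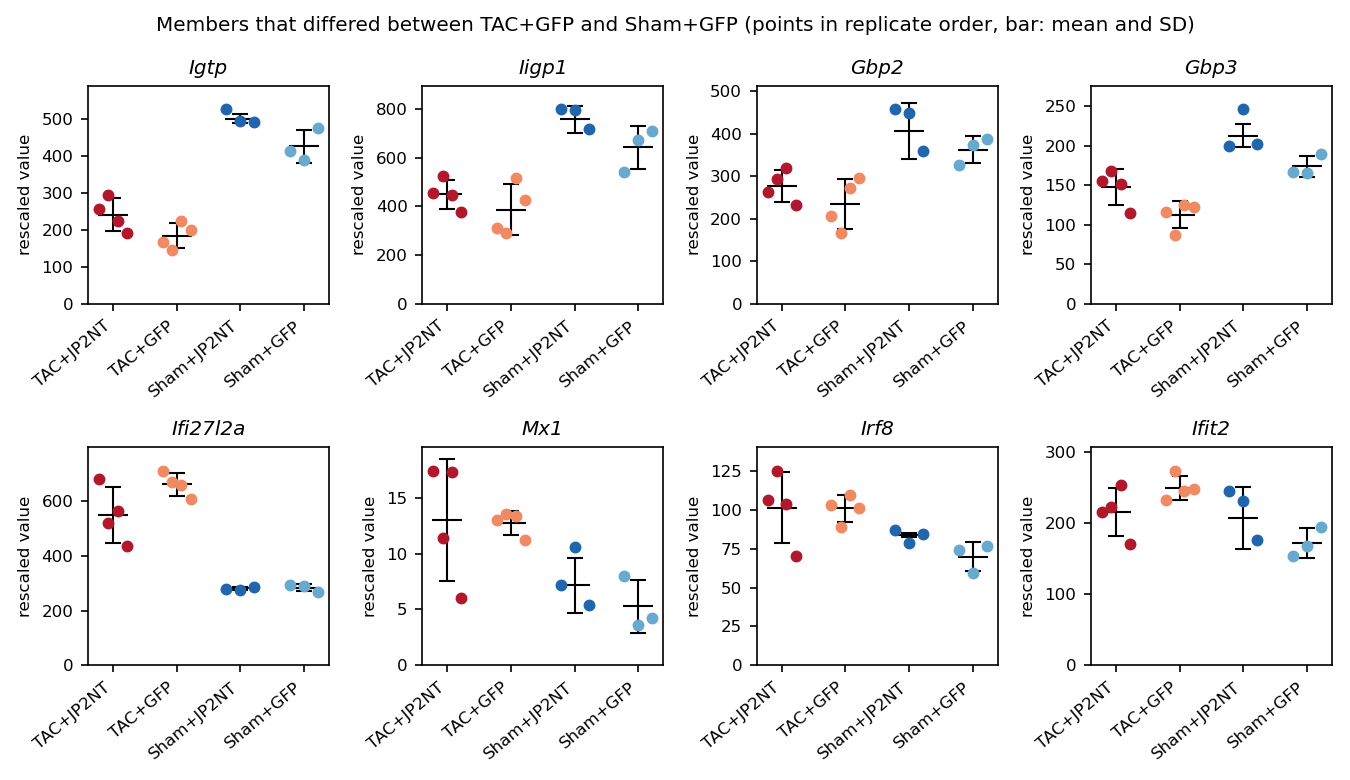
Rescaled value (vertical axis, from 0) of Igtp, Iigp1, Gbp2 and Gbp3 and the 4 members that rose in TAC+GFP against Sham+GFP, in each library, with groups in the order TAC+JP2NT, TAC+GFP, Sham+JP2NT, Sham+GFP. Points are libraries in replicate order and bars the mean and SD (n = 4, 4, 2 and 3, with Sham+JP2NT replicates 1 and 2 counted as 1 sample), and the means of Igtp, Iigp1, Gbp2 and Gbp3 lie lower in both TAC groups than in both sham groups.

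Under the JP2NT vector Igtp, Iigp1, Gbp2 and Gbp3 fell with overload again and Ifi27l2a rose again, while Irf1, Stat2, Rsad2, Oas2, Mx1, Irf8 and Ifit2 were not called. The count was 1 member higher and 6 lower in TAC+JP2NT against Sham+JP2NT, beside 16.1% and 15.8% of all tested genes (31.9% in all). The median over the members was -0.13, and 0.00 over all genes. Igtp read 257, 294, 223 and 191 in TAC+JP2NT libraries, against 526, 494 and 492 in Sham+JP2NT libraries, and fell by 1.07 on the log2 scale (SE 0.17, limma adjusted p = 0.000498). Every TAC+JP2NT library was far below every sham. Iigp1 read 453, 523, 446 and 377 in TAC+JP2NT libraries, against 799, 797 and 717 in Sham+JP2NT libraries and fell by 0.76 on the log2 scale (SE 0.20, limma adjusted p = 0.00918). Gbp2 read 262, 294, 319 and 233 in TAC+JP2NT libraries, against 458, 450 and 361 in Sham+JP2NT libraries, with the groups separate, and fell by 0.55 on the log2 scale (SE 0.19, limma adjusted p = 0.0407). For Gbp3 the values were 155, 168, 152 and 114 in TAC+JP2NT libraries, against 199.6, 246 and 203 in Sham+JP2NT libraries, also separate. Gbp3 fell by 0.54 on the log2 scale (SE 0.17, limma adjusted p = 0.0226). In all 4 genes replicate 4 was the lowest TAC+JP2NT library. Groups that did not overlap in TAC+JP2NT against Sham+JP2NT were common, at 25.2% of all genes lower and 24.5% higher, with 2 samples counted in Sham+JP2NT.

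Ifi27l2a read 682, 520.3, 566 and 436 in TAC+JP2NT libraries, against 280, 274 and 286 in Sham+JP2NT libraries, and rose by 0.95 on the log2 scale (SE 0.13, limma adjusted p = 0.000193), with replicate 1 highest and replicate 4 lowest of the TAC+JP2NT libraries. Irf9 read 269, 297, 283 and 239.6 in TAC+JP2NT libraries, against 329, 359.9 and 335 in Sham+JP2NT libraries. It fell by 0.32 on the log2 scale (SE 0.10, limma adjusted p = 0.0293), and its groups were separate. Oasl2, a relative of the oligoadenylate synthetases that carries ubiquitin-like domains, read 146, 157, 168 and 106 in TAC+JP2NT libraries, against 185, 206 and 189.8 in Sham+JP2NT libraries. It fell by 0.44 on the log2 scale (SE 0.16, limma adjusted p = 0.0462), and 10 of 25 alternative settings lost that call, the one without replicate 4 among them. Under GFP its values were 173, 149, 166 and 138 in TAC+GFP libraries, against 188, 180.2 and 205 in Sham+GFP libraries, lower without overlap (log2 difference -0.29, SE 0.14, limma adjusted p = 0.0957).

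Irf1 read 364, 373, 340.4 and 277 in TAC+JP2NT libraries, against 374, 419 and 363 in Sham+JP2NT libraries (log2 difference -0.17, SE 0.15, limma adjusted p = 0.395), and Stat2 274, 232, 229 and 259 in TAC+JP2NT libraries, against 266, 326 and 265 in Sham+JP2NT libraries (log2 difference -0.17, SE 0.12, limma adjusted p = 0.28). Rsad2 read 294, 297, 309.9 and 235 in TAC+JP2NT libraries, against 275, 303 and 346 in Sham+JP2NT libraries (log2 difference -0.16, SE 0.13, limma adjusted p = 0.377), and Oas2 142, 139.8, 173 and 135 in TAC+JP2NT libraries, against 167, 169.8 and 150.5 in Sham+JP2NT libraries (log2 difference -0.12, SE 0.13, limma adjusted p = 0.536). In these 4 genes TAC+JP2NT and Sham+JP2NT libraries overlapped. Mx1 read 17.4, 11.4, 17.3 and 6.02 in TAC+JP2NT libraries, against 7.19, 10.6 and 5.41 in Sham+JP2NT libraries, Irf8 106, 125, 104 and 70.1 in TAC+JP2NT libraries, against 86.8, 78.8 and 84.8 in Sham+JP2NT libraries and Ifit2 215, 222, 252 and 170 in TAC+JP2NT libraries, against 245, 231 and 176 in Sham+JP2NT libraries. Their groups overlapped too, and TAC+JP2NT replicate 4 lay among or below the shams in each.

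Without TAC+JP2NT replicate 4 the members called were 3 higher and 4 lower: Rnf213 (0.44) and Trim30a (0.51) joined Ifi27l2a on the higher side, Gbp2 and Oasl2 were no longer called, and the members' median turned to 0.04. The count was 3 (1 higher, 2 lower) with libraries scaled to equal totals, a scaling that moves the median of all genes to 0.11, and also 3 without Sham+JP2NT replicate 3, which leaves a single sample in that group.

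With JP2NT in overloaded hearts, 2 antiviral genes (Rsad2 and Oas2) and 2 transcription factors (Irf1 and Irf9) were higher than with GFP, and no member was called lower. In TAC+JP2NT against TAC+GFP the 4 members called higher stand beside 2.75% of all tested genes called higher and 3.4% lower (6.15% in all). At an unadjusted p under 0.05 10 members were higher and 1, Ifi27l2a, lower, beside 1457 higher and 1505 lower of all 13212 genes. The median log2 difference was 0.16 over the members and 0.00 over all genes, with 22 of 34 members above 0. Since this comparison shares the TAC+GFP libraries with the overload comparison under GFP, the opposite signs of a gene in the 2 comparisons are not independent of each other.

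Rsad2 averaged 284 ± 33.2 in TAC+JP2NT and 189.8 ± 23.7 in TAC+GFP (SD, n = 4 each). It rose by 0.58 on the log2 scale (SE 0.11, limma adjusted p = 0.00834), the lowest TAC+JP2NT library, replicate 4 at 235, lay above the highest TAC+GFP library at 210.1, and the call held in all 25 alternative settings. Irf1 averaged 338 ± 43.4 in TAC+JP2NT and 240.1 ± 41.4 in TAC+GFP. It rose by 0.50 on the log2 scale (SE 0.12, limma adjusted p = 0.0265), with no overlap but almost none to spare, at 277 in TAC+JP2NT replicate 4 against 275 in TAC+GFP replicate 4. Oas2 averaged 147 ± 17.6 in TAC+JP2NT and 105 ± 7.7 in TAC+GFP. It rose by 0.48 on the log2 scale (SE 0.11, limma adjusted p = 0.021), and the groups were well apart. Irf9 averaged 272 ± 24.7 in TAC+JP2NT and 207 ± 17.8 in TAC+GFP. It rose by 0.39 on the log2 scale (SE 0.09, limma adjusted p = 0.0164), and its groups were separate as well. Groups that did not overlap in this direction were found for 5.25% of all genes.

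The count of 4 rests on few libraries. It was 7 without TAC+JP2NT replicate 4, when Rnf213 (0.55), Gbp3 (0.50) and Igtp (0.49) also passed. It was 2 without TAC+GFP replicate 1 or TAC+JP2NT replicate 2, and 1, Rsad2, without TAC+GFP replicate 2, with TAC replicates 1 and 2 averaged, or when the model held just the compared groups. With the values as deposited, 4 members were higher and 1 lower, Ifi27l2a at -0.36.

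Further members lay higher in TAC+JP2NT without passing. Ifi44 averaged 48.4 ± 13.8 in TAC+JP2NT and 31.3 ± 2.02 in TAC+GFP (log2 difference 0.57, SE 0.20, limma adjusted p = 0.108), with libraries overlapping at TAC+JP2NT replicate 3. Rnf213, a very large ubiquitin ligase, read 832, 777, 784 and 524 in TAC+JP2NT, 485, 469.9, 557 and 676 in TAC+GFP, 589.9, 599.8 and 569 in Sham+JP2NT and 476, 491 and 537 in Sham+GFP libraries (log2 difference 0.41, SE 0.14, limma adjusted p = 0.0881 in TAC). Replicates 1 to 3 of TAC+JP2NT were above all other libraries, and replicate 4 was among the TAC+GFP values. Stat2 averaged 249 ± 21.6 in TAC+JP2NT and 205 ± 21.6 in TAC+GFP (log2 difference 0.28, SE 0.10, limma adjusted p = 0.0967). Igtp, Iigp1, Gbp2 and Gbp3 lay between 0.25 (Iigp1) and 0.39 (Gbp3) above TAC+GFP without a call, and their means in TAC+JP2NT were below those of both sham groups. Ifi27l2a averaged 551 ± 103 in TAC+JP2NT and 663 ± 42.6 in TAC+GFP (log2 difference -0.28, SE 0.11, limma adjusted p = 0.126), and Dhx58, the RNA sensor LGP2, had the most negative difference (log2 difference -0.45, SE 0.24, limma adjusted p = 0.291).

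**Figure D3:**
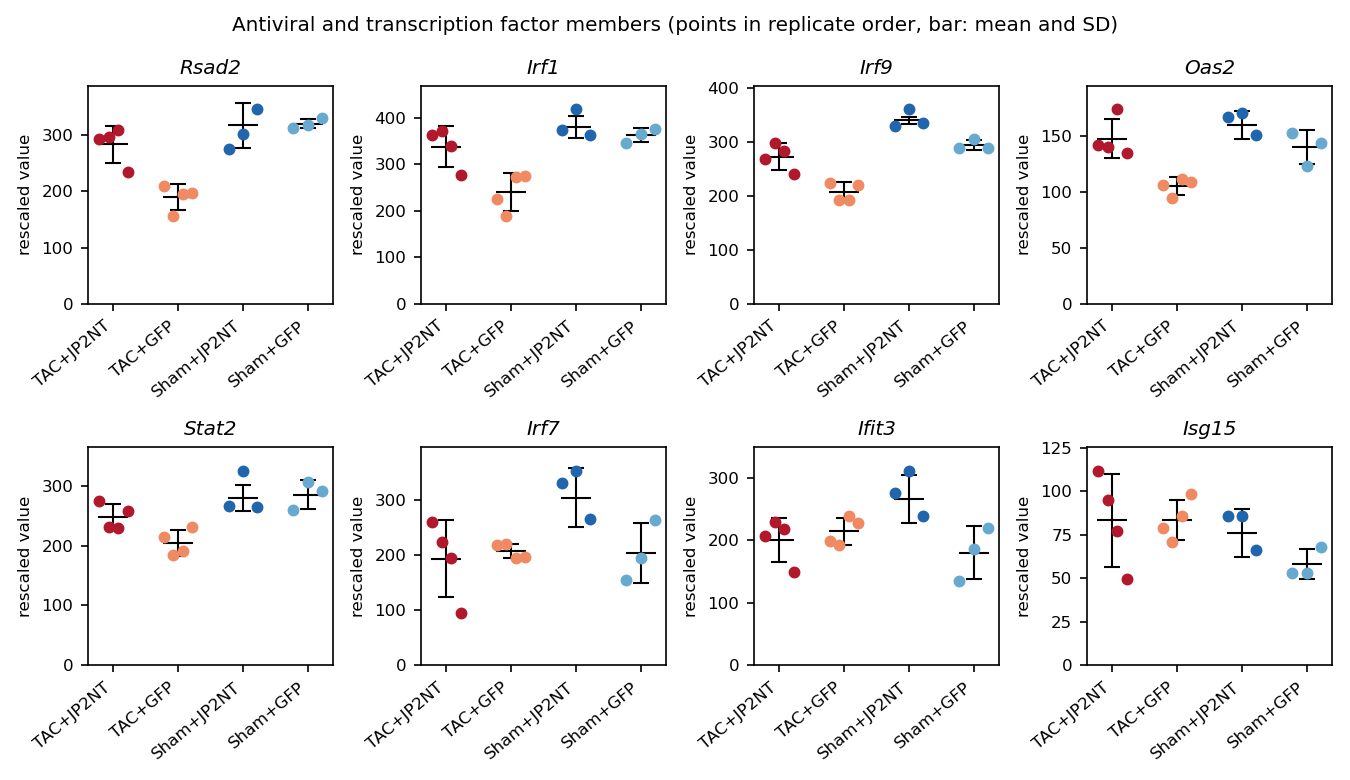
Rescaled value (vertical axis, from 0) in each library of the 4 members called higher in TAC+JP2NT than in TAC+GFP (Rsad2, Irf1, Oas2, Irf9) and of Stat2, Irf7, Ifit3 and Isg15, with points in replicate order and the mean and SD as bars (n = 4, 4, 2 and 3 samples). For the called members every TAC+JP2NT point lies above every TAC+GFP point.

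In unstressed hearts no member was called between the vectors, yet most lay a little higher with JP2NT. In Sham+JP2NT against Sham+GFP 0 members and 0 of all 13212 genes (0%) passed in limma. At an unadjusted p under 0.05 there were 1 member, Ifit3, and 581 genes. The median log2 difference was 0.22 over the members, with 29 of 34 above 0, and -0.01 over all genes, of which 46.9% were above 0. The samples of 14 members did not overlap in the higher direction, beside 12.5% of all genes. The comparison rests on 2 samples counted in Sham+JP2NT, and a missing call does not show that the vectors acted alike. As a mean log2 difference from Sham+GFP over the members, replicates 1 and 2, counted as 1 sample, stood at 0.25 and 0.33. Sham+JP2NT replicate 3 stood at 0.11, near Sham+GFP replicate 3 at 0.10, so the shift came mostly from 1 sample.

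Irf7 read 331, 352 and 266 in Sham+JP2NT libraries, against 154, 195 and 262 in Sham+GFP libraries (log2 difference 0.59, SE 0.31, limma adjusted p = 0.998, 95% interval -0.07 to 1.26). All 3 Sham+JP2NT libraries were above the shams with GFP, replicate 3 by a small margin. Ifit3, an RNA-binding IFIT protein, read 275, 311 and 239 in Sham+JP2NT libraries, against 135, 186 and 219 in Sham+GFP libraries (log2 difference 0.58, SE 0.20, limma adjusted p = 0.998). In overloaded hearts the sign of both was the other way, with Irf7 at 259, 224, 193 and 95.4 in TAC+JP2NT libraries, against 217, 219, 195 and 197 in TAC+GFP libraries (log2 difference -0.19, SE 0.24, limma adjusted p = 0.693), and Ifit3 at 207, 229, 217 and 148 in TAC+JP2NT libraries, against 199, 192, 238 and 227 in TAC+GFP libraries (log2 difference -0.11, SE 0.16, limma adjusted p = 0.737). The chemokine Cxcl9, a ligand of CXCR3 on activated T cells, read 125, 97.1 and 47.6 in Sham+JP2NT libraries, against 44.4, 62.1 and 62.2 in Sham+GFP libraries, with Sham+JP2NT replicate 3 unlike the other two. Usp18, which removes ISG15 from proteins and damps IFNAR2, showed the same split, at 92.7, 82.6 and 47.7 in Sham+JP2NT libraries, against 59.2, 60 and 61.5 in Sham+GFP libraries.

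Whether JP2NT acted differently in TAC and sham hearts was tested as an interaction. No member passed in limma, beside 10 of all genes (0.0757%, with 0.0378% higher and 0.0378% lower), and 4 members had an unadjusted p under 0.05, beside 1505 of the 13212 genes, a like share. These were Rsad2 (0.60, limma adjusted p = 0.214) and Irf1 (0.43, adjusted p = 0.426), where the JP2NT difference was more positive in TAC than in sham hearts, and Ifit3 (-0.69, adjusted p = 0.32) and Ifit2 (-0.48, adjusted p = 0.405), where it was more negative. The intervals were wide, at 0.22 to 0.98 for Rsad2 and -1.63 to 0.05 for Irf7 (95%). The calls of Rsad2, Irf1, Oas2 and Irf9 in TAC hearts are therefore not shown to be particular to overload.

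**Figure D4:**
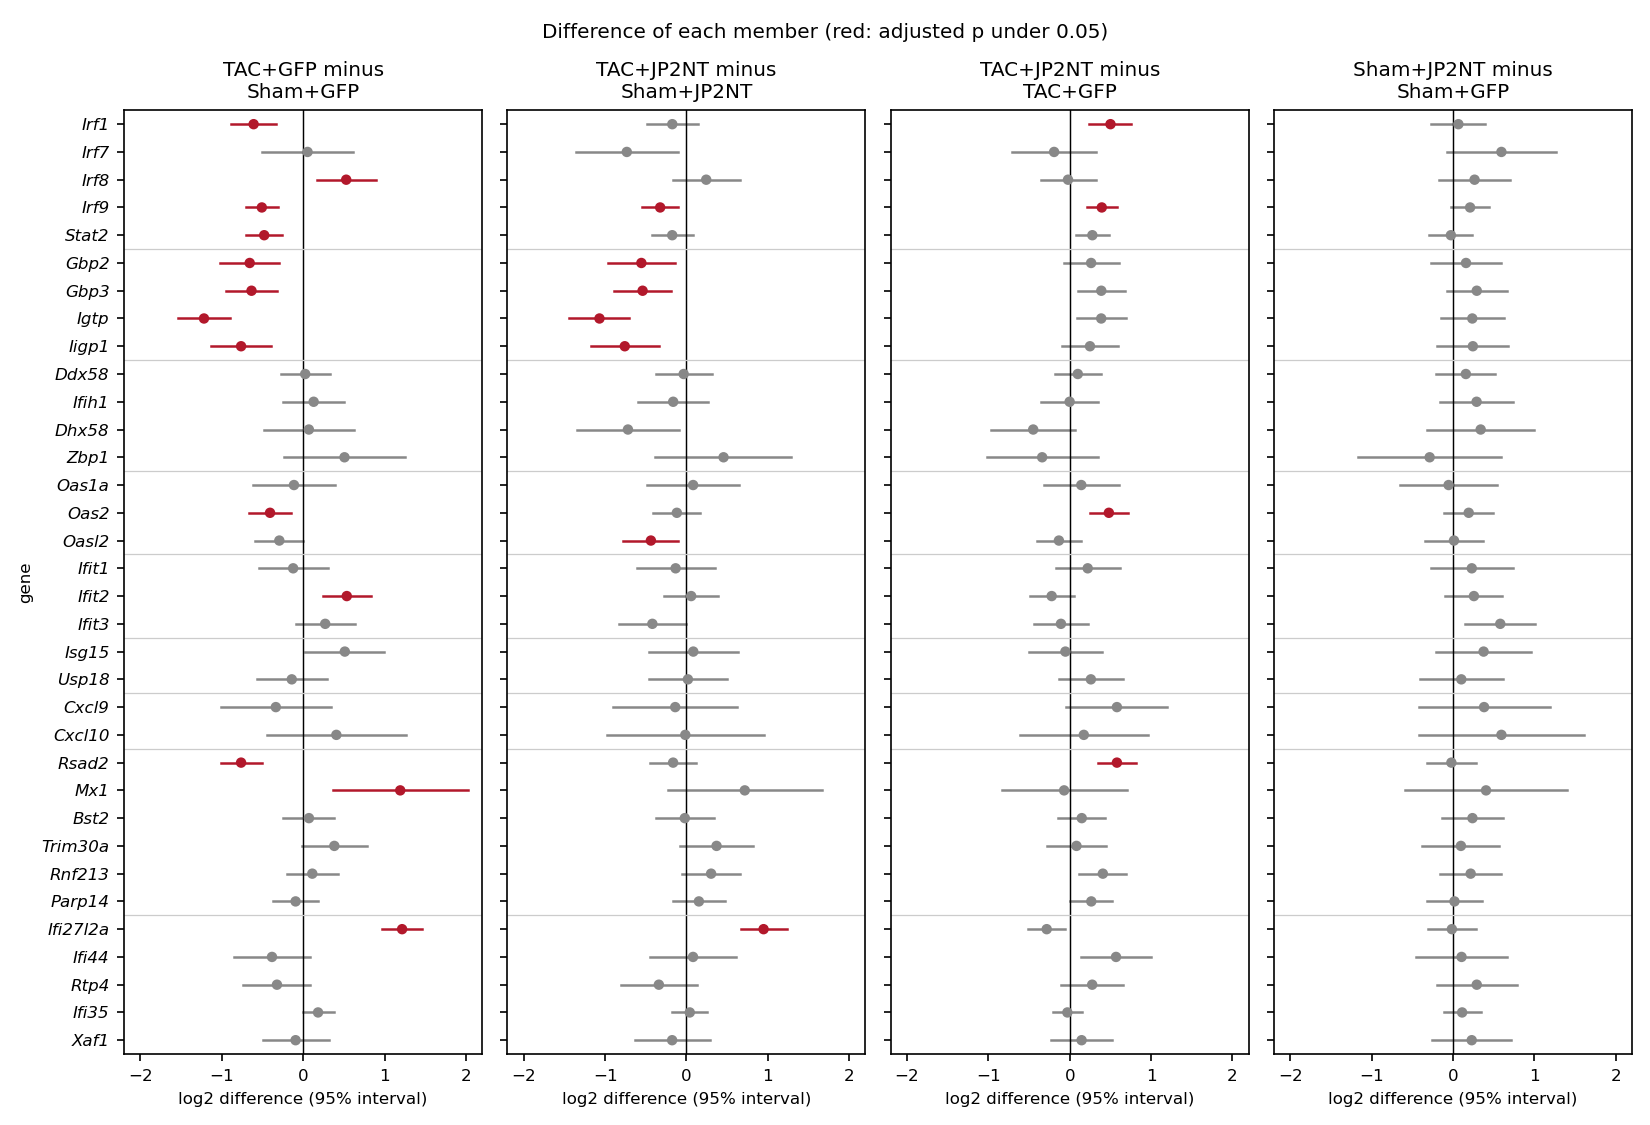
Log2 difference of each member in the 4 comparisons between groups, with the 95% interval of limma as a line and red where the member was called and grey otherwise. In TAC+JP2NT against TAC+GFP 22 of 34 points lie above 0 and in Sham+JP2NT against Sham+GFP 29 of 34, but only 4 and 0 of them are called.

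Libraries of the same group differed in the members together, most of all in TAC+JP2NT. As a mean log2 difference from the Sham+GFP mean over the 34 members, TAC+JP2NT replicates 1 to 4 stood at 0.26, 0.30, 0.14 and -0.31. TAC+GFP replicates 1 to 4 stood at -0.05, -0.18, -0.03 and 0.05, Sham+JP2NT replicates 1 to 3 at 0.25, 0.33 and 0.11, and Sham+GFP replicates 1 to 3 at -0.05, -0.05 and 0.10. The spread within TAC+JP2NT was thus larger than any difference between group means. TAC+JP2NT replicate 4 was the lowest library of its group for 30 of 34 members, beside 32% of all tested genes, and the lowest of all 14 libraries for 11. TAC+GFP replicate 2 was lowest of its group for 18 members, beside 23.3% of all tested genes, and lowest of all 14 for 11. The 4 members in which TAC+JP2NT replicate 4 was not lowest of its group were Stat2, Ifi44, Cxcl10 and Ifi35.

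**Figure D5:**
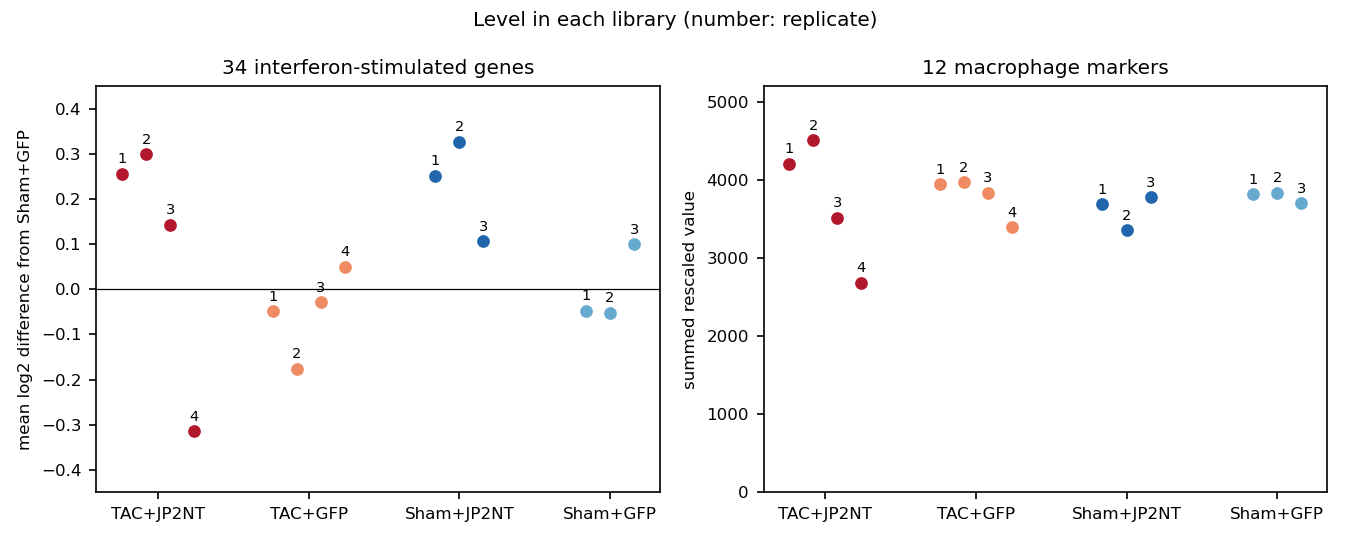
Mean over the 34 members of the log2 difference from the Sham+GFP mean (vertical axis) in each library, by group. TAC+JP2NT replicate 4 at -0.31 lies below the other 13 libraries, which span -0.18 to 0.33.

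Marker sums of some other cell types, though not all, also stood apart in TAC+JP2NT replicate 4. The sum of 8 fibroblast markers, at 28930, was the highest of the TAC libraries, with 22310 to 26650 in the others. Most of it came from Gsn, at 17620 there and 9977 to 13690 in the other TAC libraries. Col1a1 (1236) and Pcolce (749.9) were lowest there, and Pdgfra, Dcn, Tcf21, Lum and Dpt lay within the range of the other TAC libraries. The sum of 8 endothelial markers, at 10650, was the lowest of all libraries. That of 6 conventional dendritic cell markers, at 153.3, lay within the 128.1 to 190 of the other TAC libraries. The summed value of 12 macrophage markers (among them Adgre1, Csf1r and C1qa, all listed above 0) came to 2684 for TAC+JP2NT replicate 4, with 3516 to 4507 for the other TAC+JP2NT libraries, 3396 to 3971 in TAC+GFP, 3358 to 3774 in Sham+JP2NT and 3700 to 3835 in Sham+GFP. The sum of 6 markers of recruited monocytes, most of it from Vcan, was 313.7 in that library and 558.6 to 779.7 in the others of its group, 553 to 611 in TAC+GFP, 217 to 304.3 in Sham+JP2NT and 295.5 to 379.7 in Sham+GFP. Cardiomyocyte markers, which check the labelled tissue, summed to 769800 to 836900 in TAC+JP2NT replicates 1 to 3, 959000 in replicate 4, 695100 to 821500 in TAC+GFP, 1156000 to 1183000 in Sham+JP2NT and 1184000 to 1218000 in Sham+GFP. That library thus had the highest cardiomyocyte sum and the lowest macrophage sum of the TAC libraries. The largest part of its cardiomyocyte sum came from Myh6, at 336000 there and 144600 to 227400 in the other TAC libraries. Tnni3, Myl2, Ryr2 and Pln were also highest there, but Tnnt2, Actc1 and Mb were not, and Mb was lowest at 153900. Among the macrophage markers, Lyve1, Cd163, Timd4 and Itgam were not lowest in that library.

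In TAC+GFP against Sham+GFP, where 23.3% of all genes were higher and 24.8% lower, 0 of 12 macrophage markers rose and 4 fell (Cd163, Csf1r, Itgam and Timd4). The median log2 difference over the 12 was 0.008, so they did not shift together. C1qa (698 to 808 in TAC+GFP, 601 to 678 in Sham+GFP) and C1qb were higher without overlap and Cd68 lower, none of them called. All 4 tested of 6 markers of recruited monocytes (Ccr2, Fcgr4, Plac8 and Vcan) rose in that comparison, with a median log2 difference of 1.01. Ly6c2 and Chil3 were too low to test. Plac8 and Fcgr4 were near the limit for testing, at 6.68 to 9.03 and 7.26 to 11.7 in Sham+GFP libraries. Of 8 markers each, 4 of fibroblasts rose and 1 fell, 1 of endothelium rose and 3 fell, and 0 of cardiomyocytes rose and 5 fell. Of 7 pericyte markers 5 fell. In TAC+JP2NT against Sham+JP2NT, beside 16.1% of all genes higher and 15.8% lower, 0 macrophage markers were called, 1 monocyte marker (Vcan) rose, 2 fibroblast markers rose and 1 fell, and 4 endothelial, 4 cardiomyocyte and 2 pericyte markers fell. Between TAC+JP2NT and TAC+GFP, beside 2.75% higher and 3.4% lower, 3 pericyte markers (Abcc9, Notch3 and Vtn) and 1 cardiomyocyte marker (Pln) were higher with JP2NT and 2 endothelial markers (Egfl7 and Vwf) lower, with 0 macrophage, monocyte or fibroblast markers called.

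Markers of lymphocytes were low. The 6 listed T cell markers summed to 22.7 to 33.3 in TAC+JP2NT, 24.2 to 46 in TAC+GFP, 17.2 to 32.1 in Sham+JP2NT and 18.1 to 34.6 in Sham+GFP libraries, and the 6 NK cell markers to at most 25.8 in any library. The 5 B cell markers summed to 114.3 in TAC+GFP replicate 4, which stood apart from the other 13 libraries at 24.6 to 53.6. The 6 neutrophil markers summed to 24.5 to 138.6 in TAC+JP2NT, 37 to 155 in TAC+GFP, 39.9 to 61.5 in Sham+JP2NT and 20.9 to 41.6 in Sham+GFP libraries, highest in TAC+GFP replicate 3 and TAC+JP2NT replicates 1 and 2. Ly6g among them was listed at 0 in all libraries, and 0 of the 3 tested were called. Of the markers of plasmacytoid dendritic cells, a main source of type I interferon, Siglech and Ccr9 read 0 to 5.17 and 0 to 1.66. Tcf4, which many other cells express as well, read 789 to 1248 in TAC+JP2NT, 1019 to 1180 in TAC+GFP, 682 to 718 in Sham+JP2NT and 677 to 682 in Sham+GFP libraries, and rose in both overload comparisons by 0.69 under GFP and 0.59 under JP2NT on the log2 scale, with TAC+JP2NT replicate 4 its lowest TAC library. The part of any of these cells in the members' differences was not tested.

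The remaining members were measured with no call in any comparison. The RNA sensors Ddx58 (RIG-I), Ifih1 (MDA5) and Dhx58 (LGP2) and the Z-nucleic acid sensor Zbp1 were within 0.03 to 0.51 of Sham+GFP in TAC+GFP hearts on the log2 scale, all 4 on the higher side. Ddx58 read 194, 207, 227 and 150.5 in TAC+JP2NT, 169.6, 192, 152 and 210.5 in TAC+GFP, 212, 226 and 178 in Sham+JP2NT and 182, 173 and 175 in Sham+GFP libraries. Its groups overlapped throughout. Isg15, the ubiquitin-like modifier of the list, read 112, 94.8, 77.3 and 49.4 in TAC+JP2NT, 78.6, 71.1, 85.6 and 98.3 in TAC+GFP, 85.5, 85.6 and 66.2 in Sham+JP2NT and 53.3, 53.2 and 68 in Sham+GFP libraries, and its TAC+GFP libraries were all above the Sham+GFP libraries (log2 difference 0.51, SE 0.23, limma adjusted p = 0.0752). Isg15 passed in that comparison without TAC+JP2NT replicate 4 (0.51, limma adjusted p = 0.0193), which changes the shared estimate of the spread.

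Irf7 ranged over the 14 libraries from 95.4 in TAC+JP2NT replicate 4 to 352 in Sham+JP2NT replicate 2, and under JP2NT its TAC libraries were all below its sham libraries (log2 difference -0.73, SE 0.30, limma adjusted p = 0.0717). Dhx58 was lower in TAC+JP2NT too, at 23.2, 26.8, 32.8 and 14.8 in TAC+JP2NT libraries, against 32.6, 45.7 and 39.6 in Sham+JP2NT libraries (log2 difference -0.72, SE 0.29, limma adjusted p = 0.0759). In Dhx58 TAC+JP2NT replicate 3 lay just above Sham+JP2NT replicate 1. Ifit3 was below its shams in all TAC+JP2NT libraries (log2 difference -0.42, SE 0.19, limma adjusted p = 0.11). Parp14, an ADP-ribosyltransferase, read 428, 474, 447 and 326 in TAC+JP2NT, 306, 328, 332 and 426 in TAC+GFP, 412, 384 and 349 in Sham+JP2NT and 345, 398 and 363 in Sham+GFP libraries, with no separation of the groups. Bst2, the membrane protein tetherin that holds budding virus on the cell, read 325, 331, 234 and 201 in TAC+JP2NT, 248, 228, 228 and 261 in TAC+GFP, 271, 291 and 260.4 in Sham+JP2NT and 227, 215 and 246 in Sham+GFP libraries. TAC+JP2NT replicates 1 and 2 were its highest libraries and replicate 4 its lowest. Ifi35 read 236, 238, 211 and 215 in TAC+JP2NT, 216, 259, 225 and 219 in TAC+GFP, 196, 225 and 226 in Sham+JP2NT and 208, 194 and 204 in Sham+GFP libraries, and was higher without overlap in TAC+GFP than in Sham+GFP (log2 difference 0.18, SE 0.09, limma adjusted p = 0.104). Trim30a, a mouse TRIM protein, read 169, 178, 159 and 108 in TAC+JP2NT, 118, 131, 147 and 180.5 in TAC+GFP, 114, 127 and 112 in Sham+JP2NT and 112, 87.9 and 130.2 in Sham+GFP libraries, highest in TAC+GFP replicate 4 and TAC+JP2NT replicates 1 to 3.

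Of the other members, Ifit1 ranged from 66.6 to 132 over the 14 libraries, Oas1a from 46.4 to 110.4, Ifih1 from 80.9 to 180, Xaf1 from 55.8 to 105 and Rtp4 from 58 to 112. In all 5 the lowest library was TAC+JP2NT replicate 4. Zbp1 ranged from 10.9 to 42.6, and read 33.9, 28.2, 22.4 and 27 in TAC+GFP libraries, against 20.6, 17.4 and 19.5 in Sham+GFP libraries, higher without overlap but not called (log2 difference 0.51, SE 0.35, limma adjusted p = 0.241). Its TAC+JP2NT and Sham+JP2NT libraries overlapped. Cxcl10 ranged from 2.46 to 11.9, where a library holds few reads, and its groups overlapped in both overload comparisons.

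Transcripts of the interferons themselves were at the limit of what the libraries could hold, and what sets the members' levels here was not tested. Of 11 interferon genes, 10, Ifnb1 and 5 alpha interferons among them, were listed at 0 in all 14 libraries. Ifng was listed above 0 in 1 library each of TAC+JP2NT (0.709), Sham+JP2NT (1.32) and Sham+GFP (1.19), about 1 read each, and at 0 in the other 11. Interferon transcripts were thus at or below about 1 read per library at this depth.

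The counts called in the pathway lists that follow stand beside 23.3% of all tested genes higher and 24.8% lower in TAC+GFP against Sham+GFP, 16.1% and 15.8% in TAC+JP2NT against Sham+JP2NT, and 2.75% and 3.4% in TAC+JP2NT against TAC+GFP. Of 6 receptor chains 1 rose and 2 fell in TAC+GFP against Sham+GFP: Ifngr1, the ligand-binding chain for interferon gamma, rose by 0.53, and its partner Ifngr2 and Il10rb, a chain of the lambda interferon receptor, fell by 0.44 and 0.39 on the log2 scale. With JP2NT in TAC hearts Ifngr2 rose by 0.28 on the log2 scale (SE 0.07, limma adjusted p = 0.0237). Ifnar1 and Ifnar2 were not called in any comparison. Of the kinases of these receptors, Jak2 rose by 0.38 and Tyk2 fell by 0.25 on the log2 scale in TAC+GFP against Sham+GFP.

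Among 6 tested negative regulators of the pathway, Socs3, Ptpn1 and Ptpn2 rose in TAC+GFP against Sham+GFP by 0.86, 0.32 and 0.77 on the log2 scale and 0 fell. Cish, a SOCS family member, fell with JP2NT in TAC hearts (log2 fold change -0.44, SE 0.12, limma adjusted p = 0.045). Cish also read lower in Sham+JP2NT libraries (1005, 936.5 and 1287) than in Sham+GFP libraries (1850, 1636 and 1412), a comparison without any call. In TAC+JP2NT against Sham+JP2NT Cish and Ptpn2 rose and 0 of these regulators fell.

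Of 13 tested sensors and adaptors upstream of interferon, 3 rose and 3 fell in TAC+GFP against Sham+GFP. Tlr8, Ticam1, the adaptor of TLR3, and Tmem173, which encodes STING, rose by 0.72, 0.49 and 0.47. Adar, which edits double-stranded RNA and keeps it from the sensors, Samhd1, a nucleotide hydrolase, and Mavs, the adaptor of RIG-I and MDA5, fell by 0.55, 0.50 and 0.47. Adar rose by 0.34 on the log2 scale (SE 0.08, limma adjusted p = 0.0201) in TAC+JP2NT against TAC+GFP. In TAC+JP2NT against Sham+JP2NT Tlr7 and Tlr8 rose and Mavs, Samhd1 and Trex1 fell. Of 7 kinases and factors that induce interferon, Irf5 and Traf3 rose in TAC+GFP against Sham+GFP, by 0.97 and 0.46, and only Traf3 in TAC+JP2NT against Sham+JP2NT (0.65).

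Further interferon gamma inducible GTPases and antigen-processing genes were called in both directions. Of 22 tested, 3 rose and 9 fell in TAC+GFP against Sham+GFP, beside the 23.3% and 24.8% of all genes. There were 2 that rose and 6 that fell in TAC+JP2NT against Sham+JP2NT, beside 16.1% and 15.8%. Between the vectors, 5 rose and 1 fell in TAC+JP2NT against TAC+GFP, beside 2.75% and 3.4%. Their median log2 differences were -0.34, -0.29 and 0.22, beside -0.01, 0.00 and 0.00 over all genes. Gbp5 averaged 56.4 ± 14.8 in TAC+GFP and 159.7 ± 19.4 in Sham+GFP, and fell by 1.52 on the log2 scale (SE 0.19, limma adjusted p = 2.09e-05). It averaged 98.2 ± 14.6 in TAC+JP2NT (SD, n = 4), and rose by 0.82 on the log2 scale (SE 0.18, limma adjusted p = 0.0162) against TAC+GFP. Cd274, which encodes the immune checkpoint ligand PD-L1, fell by 1.32 on the log2 scale (SE 0.17, limma adjusted p = 3.37e-05) in TAC+GFP against Sham+GFP and rose by 0.67 on the log2 scale (SE 0.16, limma adjusted p = 0.0269) in TAC+JP2NT against TAC+GFP. Irgm2 fell by 1.15 and Tgtp1 by 1.06 in TAC+GFP against Sham+GFP, and in TAC+JP2NT against TAC+GFP they rose by 0.40 and 0.87. Gbp7 rose by 0.62 in that comparison. Upp1, which encodes uridine phosphorylase, went the other way, with log2 fold change 1.03, SE 0.15, limma adjusted p = 7.81e-05 in TAC+GFP against Sham+GFP and log2 fold change -0.72, SE 0.14, limma adjusted p = 0.00981 in TAC+JP2NT against TAC+GFP. Tap2 fell by 0.55 and Irgm1 by 0.59 in TAC+GFP against Sham+GFP. Gbp4, Gbp6, Gbp7, Gbp9, Gbp10 and Ifi47 were not called there. Gbp7 read 108, 117, 136 and 142 in TAC+GFP libraries, against 81, 98.3 and 126 in Sham+GFP libraries. For Gbp9 the values were 208, 227.5, 313 and 359 in TAC+GFP libraries, against 244, 289 and 304 in Sham+GFP libraries.

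A list of 53 further tested type I interferon-stimulated genes was likewise called in both directions with overload. In TAC+GFP against Sham+GFP 10 rose and 9 fell, in TAC+JP2NT against Sham+JP2NT 7 rose and 3 fell, and in TAC+JP2NT against TAC+GFP 3 rose and 0 fell. Slfn9, Ifitm10, Ifi211, Slfn2 and Pnp rose by 1.51, 1.18, 0.94, 0.83 and 0.82 in TAC+GFP against Sham+GFP. Oas1b, Trim21 and Sp100 fell by 0.82, 0.77 and 0.65 there. The 3 genes higher with JP2NT in TAC hearts were Cmpk2, a nucleotide kinase whose gene neighbours Rsad2, at 0.65 (limma adjusted p = 0.0205), Sp100 at 0.48 and Dtx3l at 0.38. In Sham+JP2NT against Sham+GFP 0 genes of any of these lists were called, with 581 of all tested genes at an unadjusted p under 0.05.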

How the data were processed

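Stranded paired-end libraries were made from the poly(A) RNA of ventricles, per the labels' protocols. Per the submitters' processing notes, FastQC 1.0.0, STAR 2.6.1a and Salmon were used with genome build mm10. For the annotation, the counting settings and the scaling tool, nothing is given in the sources used. As deposited, each value is a scaled signal made from counts per gene. The factors that bring all libraries to one scale differed by vector (1.02 to 1.03 for GFP, 0.97 to 0.98 for JP2NT). The GFP and the JP2NT libraries were thus probably scaled separately, which the sources used do not state. Any other step done separately by vector cannot be told apart from the vector in comparisons of JP2NT against GFP. Only 1.11 to 2.8% of the values, divided by the value of 1 read, lay within 0.001 of a whole number, so whole reads could not be recovered and no count model was used.

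Values were rescaled jointly with trimmed means of M-values, unweighted, after dropping the outer 30% of M and 5% of A values, 1 was added and log2 taken. All folds are on this scale, which understates the change of low genes. Genes at 10 or more in at least 3 samples were tested with limma-trend (limma 3.58.1, R 4.3.3), with 1 mean per group, 9 residual and 5.71 prior degrees of freedom, two-sided, adjusted over all 13212 genes. Per group, the median SD over genes on the log2 scale was 0.176 (TAC+JP2NT), 0.158 (TAC+GFP), 0.0835 (Sham+JP2NT) and 0.107 (Sham+GFP). Of the names listed, 26 had turned into dates and 2 were repeated. The fit was tested on simulated data. Exon lengths, overlaps and shared 50-base words came from GENCODE M21, whose build is that of the files, and promoters from RefSeq.

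The members and gene lists were chosen with earlier results of these data known. Members called in any comparison, the 8 further members with the highest mean, Ifnb1 and Ifng are given in full, and called genes of each pathway list are named, up to 8 by size. 1 further gene of the pathway is not reported here. The alternatives were other scalings, pseudocounts and filters, 14 separate libraries with and without a replicate block, a spread per group, only the compared groups, TAC replicates 1 and 2 averaged, and each library left out.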

Additional observations from a re-analysis of the deposited data

Results flagged for a closer look

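In all, 70 groups of 4 libraries were examined (the 34 members and their mean, in TAC+JP2NT and in TAC+GFP). Of these, 2 held a library far from the others, where chance at about 1 in 20 gives 3.5, so no more than chance gives. The mean over the members in TAC+JP2NT, lowest in replicate 4, was not among them. Xaf1 in TAC+GFP replicate 1 read 95.87, with the rest of that group at 60.82 to 65.58. Cxcl10 in TAC+JP2NT replicate 2 read 11.39, with the rest of that group at 7.152 to 7.876, on 16 estimated reads against 6.9 to 8.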

How the results depend on the processing

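Under the 25 alternatives 0 of the single-member calls changed sign. A count of members called has no sign, so it could only grow, shrink or stay. The balance of higher and lower members did shift in TAC+JP2NT against Sham+JP2NT without TAC+JP2NT replicate 4, as given above. In TAC+JP2NT against Sham+JP2NT the count of 7 was 3 with equal totals and 3 to 8 with 1 library left out. In TAC+JP2NT against TAC+GFP the count of 4 was 1 with only the compared groups, 1 with TAC replicates 1 and 2 averaged, and 1 to 7 with 1 library left out. In TAC+GFP against Sham+GFP the count of 13 was 11 to 16 with 1 library left out, and the counts of 0 stayed 0. Of the single-member calls, 560 values kept their side of the threshold and 39 lost it; why the scaling or the library mattered was not tested. The interaction needs all 4 groups, so it was not run with only the compared groups. Without Sham+JP2NT replicate 3 the lone sample left in that group is assumed to vary like the others.

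The replicate numbers did not pair the libraries: deviations of the 19 same-numbered pairs correlated at -0.17 to 0.07, with 0 pairs over 0.1, and 1 of 14 libraries correlated best with its own number. With a replicate block over 14 separate libraries the counts were 13, 8, 5, 0 and 0, against 13, 7, 4, 0 and 0. Depth limits Cxcl10, Mx1, Zbp1 and the interferon genes most.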
